A study of Homo sapiens with 12 samples.

Results

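The response to cetuximab that SCC1, SCC6 and SCC25 have in common was described here across all genes. It covered 12 of the 12 single-cell RNA sequencing samples of the series, 6 treated with cetuximab and 6 treated with PBS. SCC1, SCC6 and SCC25 are established cell lines grown from squamous cell carcinomas of the head and neck, and the study chose them because their growth is sensitive to the antibody. Treated cells received cetuximab daily at 100 nM over 5 days, control cells received PBS on the same schedule, and each line and treatment was represented by 2 replicates. Cells are not replicates of a treatment, so the unique molecular identifiers (UMIs, 1 per captured transcript) of all cells in a sample were summed, and each cetuximab sample was paired with the PBS sample of the same line and replicate number, which gave 6 pairs. The sources describe duplicates without saying whether they came from separate cultures, so p-values measure the spread between these samples, which may be technical.

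Cetuximab is a monoclonal antibody that occupies the extracellular part of the epidermal growth factor receptor (EGFR) and keeps its ligands from binding. In squamous cells EGFR signals mainly through the RAS and MAPK cascade and through PI3K and AKT. These routes drive entry into the cell cycle and protein synthesis, and the MAPK route also induces EGFR ligands and negative regulators of its own. AKT keeps FOXO transcription factors out of the nucleus.

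The 12 samples held 961 to 2854 cells and 57057402 to 112170073 UMIs each, and 17897 genes had enough UMIs to be tested. Median UMIs per cell ranged from 24078.5 to 54864. The difference by treatment did not pass the test (higher with cetuximab in 4 of 6 pairs, exact two-sided permutation test within pairs, p = 0.188, adjusted p = 0.234), and neither did that of genes per cell (5 of 6 pairs higher, p = 0.0938, adjusted p = 0.156). The smallest p that 6 pairs allow is 0.0313. Markers of squamous epithelium summed to 1247 to 9359 UMIs per 1000000 UMIs of the sample (CPM) with PBS and to 1447 to 7552 CPM with cetuximab. Of these markers, KRT5 and KRT14 were at most 4.47 CPM in SCC6. The 4 endothelial markers summed to at most 0.684 CPM in any sample, and the 7 leukocyte markers to 0.251 to 14.1 CPM with PBS and 0.811 to 12.1 CPM with cetuximab, with PTPRC, the pan-leukocyte gene, never above 0.0691 CPM.

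To find the genes that move together in the 3 lines, the sums were fitted in edgeR with 1 term per pair and 1 treatment term. At a false discovery rate (FDR) under 0.05, 1079 genes were higher with cetuximab (6.03% of genes tested) and 994 were lower (5.55%). Of these, 923 higher genes (5.16%) and 906 lower genes (5.06%) had 1 direction in all 6 pairs. Thus 88.2% of the called genes moved one way in every pair, against 21.2% of all genes tested, and 96.8% of the called genes had 1 sign in the 3 lines, against 43.0% of all genes. The choice of genes by their mean change favours such genes, so these shares are a description. A fit without the pairs as blocks called 453 genes higher and 203 lower. Of these 656 genes, 655 were also called with the blocks. Leaving out the SCC6 replicate 2 pair reduced the calls to 206 to 215 higher and 91 to 92 lower genes, and leaving out either SCC1 pair to 480 to 496 higher and 262 to 307 lower. Without the SCC25 replicate 2 pair, 544 to 550 genes were higher and 387 to 391 lower.

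A line that took no part in choosing the genes allowed a check of direction. Genes called from SCC6 and SCC25 alone had the same sign in SCC1 for 124 of 136 higher genes (91.2%, against 66.3% of all genes with a positive change) and for 42 of 52 lower genes (80.8% against 63.4%). Genes called from SCC1 and SCC25 kept their sign in SCC6 for 639 of 791 higher genes (80.8% against 62.6%) and 482 of 522 lower genes (92.3% against 60.9%). In SCC25 the sign was the same for 405 of 464 higher genes (87.3% against 64.2%) and 225 of 242 lower genes (93.0% against 66.0%). The median change in the line left out was 0.60 to 0.77 on the log2 scale for higher genes and -0.50 to -0.33 for lower genes.

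Few of the shared changes reached 2-fold in every line. Among called genes of 1 direction with a mean of at least 10 CPM in every line, 22 of 347 higher genes and 1 of 578 lower genes changed at least 2-fold in each of the 3 lines. The median log2 fold change of these 347 higher genes was 0.54 and that of the 578 lower genes -0.42. With no limit on CPM, 112 higher and 21 lower genes of 1 direction changed at least 2-fold in each line. Of the 1461 genes with a mean of at least 100 CPM, 4.59% were higher and 16.5% were lower.

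Called genes of 1 direction in all 6 pairs were ranked by the smallest change among the 3 lines. Only genes with a mean of at least 10 CPM in every line were ranked. The limit left out higher genes such as FBN1 and ACTG2, whose smallest changes were 1.92 and 1.43 on the log2 scale. The ranked genes with the largest shared rise included TGFB2, IL32, TAGLN, CPA4, OLR1, GSTM3, MYL9, NEXN, IFI6, SOX4, ITGB6, ANKRD1 and PDGFB. Among these were a secreted growth factor, contractile proteins, an integrin subunit and an interferon-stimulated gene. The genes with the largest shared fall were AQP3, MNS1, SOWAHC, EMP2, HMMR, CENPE, CDCA7L, ARRB2, PBK, C20orf27, BUB1, CDKN3, MALL, CSTA and DEPDC1, of which HMMR, CENPE, PBK, BUB1, CDKN3 and DEPDC1 act in mitosis. The plot by pair shows how far the size of the change varied among the 6 pairs for the 28 genes shown, whose direction the choice fixed.

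**Figure D1:**
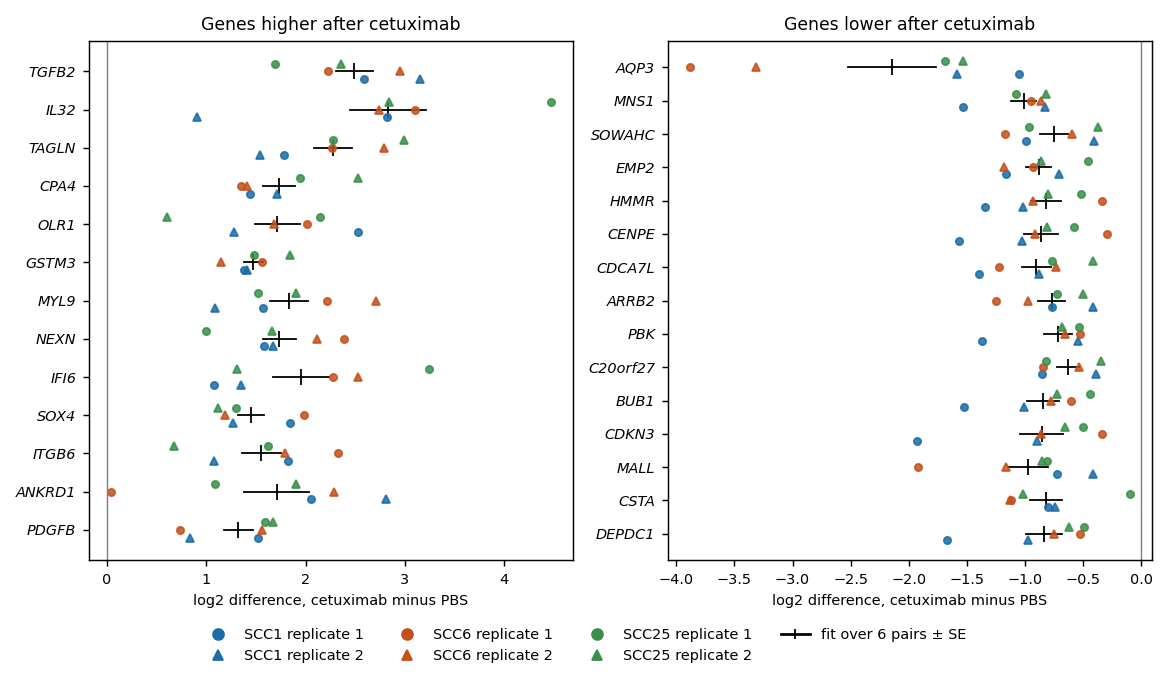
Log2 difference (cetuximab minus PBS, log2 CPM with a prior count of 2) of 13 higher and 15 lower genes with the largest shared size, 1 point per pair of equal line and replicate number. Only genes with a mean of at least 10 CPM in every line were ranked. Black bars are the edgeR log2 fold change over the 6 pairs ± SE; TGFB2 ranged from 1.69 to 3.15 and AQP3 from -3.88 to -1.05 among pairs, while ANKRD1 came close to 0 in 1 SCC6 pair (0.04).

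TGFB2 encodes transforming growth factor beta 2, a ligand that signals through SMAD proteins. In SCC1 it stood at 4.36 and 1.97 CPM with PBS and at 26.4 and 17.7 CPM with cetuximab. In SCC6 the values were 4.12 and 3.57 CPM with PBS and 19.3 and 27.8 CPM with cetuximab, and in SCC25 they were 20.3 and 13.2 CPM with PBS and 65.5 and 67.5 CPM with cetuximab. Treated and control samples did not overlap in any line. The rise was 5.62-fold over the 6 pairs (log2 fold change 2.49 ± 0.19 SE, edgeR FDR 0.000985) and stayed past the threshold whichever sample was left out.

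Of 24 ligands, receptors and targets of the TGF-beta family, 9 were higher (37.5%) and 1 was lower (4.17%). Over all genes tested 6.03% were higher and 5.55% lower. Besides TGFB2, PMEPA1 and SKIL, which are induced by SMADs and restrain the pathway, rose by 1.42 ± 0.14 and 1.09 ± 0.14 on the log2 scale. THBS1, thrombospondin 1, an activator of latent TGF-beta, was 2.79-fold higher. The 1 lower member was ID1, a target of the BMP branch (-0.57 ± 0.16, edgeR FDR 0.0490), named here after its value was seen, and it moved by -0.03, -1.07 and -0.62 in SCC1, SCC6 and SCC25. The call of ID1 was lost without any single pair except SCC1 replicate 2 (edgeR FDR up to 0.148). The median over the 24 genes was 0.41 on the log2 scale, against 0.01 over all genes tested, and by line 0.32, 0.72 and 0.10 in SCC1, SCC6 and SCC25. Without the SCC6 replicate 2 pair 5 of the 24 genes were called higher.

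Many contractile proteins of the actin cytoskeleton were higher. Of 28 such genes, 16 were higher and 0 were lower (0 lower by DESeq2, and 0 at an unadjusted p under 0.05), and 19 were higher in all 6 pairs. Of all genes tested, 6.03% were called higher and 10.6% were higher in all 6 pairs. The log2 fold change was below 0 for 6 of the 28 genes in SCC1, for 0 in SCC6 and for 2 in SCC25. The median log2 fold change was 0.39, 1.02 and 0.83 in SCC1, SCC6 and SCC25. TAGLN, transgelin, which binds actin filaments, stood at 353 and 225 CPM in SCC1 PBS samples and at 1217 and 657 CPM in SCC1 cetuximab samples. It moved from 197 and 198 to 947 and 1365 CPM in SCC6 and from 119.6 and 100.3 to 579 and 799.7 CPM in SCC25. The 4.84-fold rise (log2 fold change 2.27 ± 0.19, edgeR FDR 0.00235) was of like size in SCC6 (2.53) and SCC25 (2.63) and 1.66 in SCC1.

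MYL9, the regulatory light chain of non-muscle and smooth muscle myosin, went from 96.7 and 109 to 288 and 232 CPM in SCC1, from 84.5 and 88.0 to 393 and 575 CPM in SCC6 and from 287 and 406 to 824 and 1516 CPM in SCC25. In each line both treated samples lay above both controls, and the mean rise was 3.56-fold (edgeR FDR 0.00455). NEXN, which encodes an actin-binding protein of adhesion sites, rose 3.33-fold, and CSRP1, a LIM protein of actin bundles, 1.92-fold. ACTG2, the enteric smooth muscle actin, was 6.35-fold higher (edgeR FDR 0.00894) from a low level of 0.335 to 11.6 CPM with PBS. TPM1, a tropomyosin, was 3.13-fold higher, and this call was lost without the SCC6 replicate 2 pair (edgeR FDR 0.0555). Without that pair 6 of the 28 genes were called. The 6 markers of smooth muscle cells summed to 10.5 and 11.7 CPM with PBS and 8.70 and 8.43 CPM with cetuximab in SCC1, so that their sum was lower with cetuximab in both SCC1 pairs. It went from 3.02 and 4.41 to 15.8 and 14.7 CPM in SCC6 and from 8.31 and 9.04 to 12.6 and 34.5 CPM in SCC25. ACTA2, the smooth muscle alpha actin, named after its values were seen, made up much of these sums and did not pass (edgeR FDR 0.109), with -0.51, 2.42 and 2.27 on the log2 scale in SCC1, SCC6 and SCC25. Of these markers CNN1 alone passed the test (edgeR FDR up to 0.0632 without the SCC6 replicate 2 pair), and CNN1 is also in the contractile list. CNN1 was low, at 0.0105 to 0.126 CPM with PBS and 0.0811 to 1.37 CPM with cetuximab, and did not pass within SCC25 (edgeR FDR 0.428). The part of the smooth muscle markers in the result was not tested.

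The promoter of ACTG2 is shown because it carries the CArG box, the letters read by serum response factor, 2 times within a short distance. Promoter sequences are those of RefSeq on build GRCh38.p14, from 250 bases before to 50 bases after the start of each gene. The window below runs from base -120 to base -51 relative to the start (chr2:73892888-73892957, plus strand), with the CArG boxes in capitals.
ACTG2: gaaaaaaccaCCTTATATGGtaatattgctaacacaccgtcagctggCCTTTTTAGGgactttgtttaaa
Of the 28 contractile genes, 25 had an entry, and 6 of these (24.0%) held a CArG box on either strand, against 1.29% of all 27305 promoters. Among the other genes called higher, 14 of 768 (1.82%) held one. The table had no entry for TAGLN and MYL9. Listed genes were counted whether called or not, so the share describes the list and not the response to cetuximab. A match is a description of letters and says nothing of binding in these cells.

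A second group of higher genes encodes the extracellular matrix and its receptors. Of 25 matrix glycoproteins 11 were higher (44%, against 6.03% of all genes tested) and 0 were lower. DESeq2 gave 0 lower ones and an unadjusted p under 0.05 gave 1. Of 20 collagens tested 13 were higher (65%) and 0 were lower, and neither DESeq2 nor an unadjusted p under 0.05 gave a lower one. FN1, fibronectin, rose from 390.3 and 217 to 1071 and 579 CPM in SCC1, from 506 and 516 to 3459 and 2667 CPM in SCC6 and from 54.8 and 11.4 to 116 and 23.0 CPM in SCC25. The 2 SCC25 replicates differed more from each other than the treatment moved either, so that the rise there is seen only within pairs. Over the pairs FN1 was 3.2-fold higher (log2 fold change 1.68 ± 0.24, edgeR FDR 0.00882), and the fit without pairs as blocks gave an edgeR FDR of 0.063.

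FBN1, fibrillin 1 of the microfibrils, was 5.86-fold higher from levels of 0.31 to 1.71 CPM. TNC, tenascin C, was 4.20-fold higher over the pairs, yet in SCC1 it stayed under 1 CPM in all 4 samples, and its call was lost without the SCC6 replicate 2 pair (edgeR FDR 0.0519). Among collagens, COL4A1 of the basement membrane was 3.37-fold higher (edgeR FDR 0.0158, and 0.0557 without that pair), COL5A2 of fibrillar collagen 2.94-fold and COL16A1 2.63-fold (edgeR FDR 0.0514 without that pair). COL4A5 was 2.11-fold higher in a fit that rests on SCC1 and SCC25, since no UMI of it was found in SCC6. The median of the collagens was 0.50 on the log2 scale in SCC1, 1.23 in SCC6 and 0.88 in SCC25. Without the SCC6 replicate 2 pair 3 matrix glycoproteins and 2 collagens were called higher, without either SCC1 pair 7 to 8 collagens, and without the SCC25 replicate 2 pair 8 collagens.

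Fibroblast markers, 3 of which are also collagens of that list, summed to 1.22 to 45.4 CPM with PBS and 23.3 to 88.2 CPM with cetuximab, and their sum was higher with cetuximab in each of the 6 pairs. LUM, COL1A2, COL3A1 and FAP passed the test, and of these FAP alone did so without the SCC6 replicate 2 pair. Each was near 0 in some line. LUM was at most 0.16 CPM in SCC1 and 0.631 CPM in SCC6, and COL3A1 at most 0.046 CPM in SCC1. In SCC6 COL1A2 and FAP were at most 0.0553 and 0.254 CPM. Each culture was labelled as 1 line, PDGFRA, PDGFRB, DCN, COL1A1 and THY1 did not pass, and the part of these markers in the rise of matrix genes was not tested.

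Of 21 integrins and laminins, which attach epithelial cells to the matrix, 10 were higher and 1, LAMA4, was lower (edgeR FDR 0.0261, up to 0.0919 without any single pair except SCC6 replicate 1). These are 47.6% and 4.76% of the list, against 6.03% higher and 5.55% lower over all genes tested. ITGB6, the beta 6 chain that pairs with the alpha v chain and frees TGF-beta from its latent form, rose from 20.2 and 12.8 to 71.6 and 26.9 CPM in SCC1, from 10.1 and 11.4 to 50.6 and 39.6 CPM in SCC6 and from 39.3 and 28.4 to 121 and 45.4 CPM in SCC25 (2.94-fold, edgeR FDR 0.00722). Its partner ITGAV was 2.11-fold higher, and ITGB5 rose by 0.63 ± 0.09 on the log2 scale. LAMB2 was called (0.80 ± 0.13) on SCC1 and SCC6, as SCC25 stayed under 0.03 CPM, and the call was lost without the SCC6 replicate 2 pair (edgeR FDR 0.0577). Without that pair 3 of the 21 genes were called higher, without either SCC1 pair 5 to 6, and without the SCC25 replicate 2 pair 5. Among proteases and their inhibitors, TIMP2, an inhibitor of metalloproteinases, had one of the most even rises, from 1.06 to 1.38 on the log2 scale among the 6 pairs (2.27-fold, edgeR FDR 0.000773).

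The YAP and TEAD axis, through which cells read tension and contact, had 8 of 20 genes higher and 0 lower (0 lower by DESeq2, and 0 at an unadjusted p under 0.05). The higher genes are 40% of the list, against 6.03% of all genes tested. Its medians were 0.37, 0.33 and 0.33 in SCC1, SCC6 and SCC25. CRIM1 was 2.03-fold and ARHGEF17, an exchange factor of small GTPases, 1.75-fold higher. CTGF, a matrix-associated growth factor, rose 1.63-fold and ANKRD1, a nuclear ankyrin protein, 3.27-fold. Both of these calls were lost without the SCC6 replicate 2 pair (edgeR FDR 0.0614 and 0.0658), ANKRD1 also without the SCC1 replicate 1 pair (0.0516 to 0.0518), and CTGF was not called without the pairs as blocks (0.141). Without the SCC6 replicate 2 pair 2 of the 20 genes were called, and without either SCC1 pair or the SCC25 replicate 2 pair 4.

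**Figure D2:**
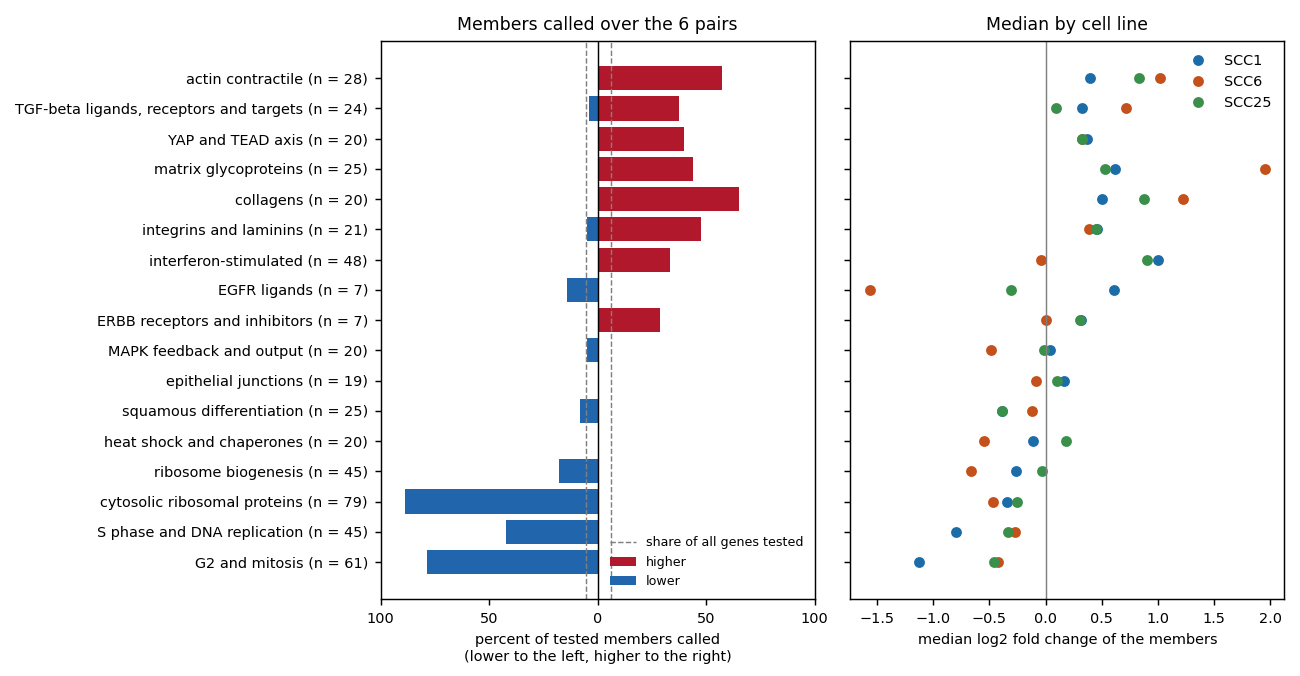
Left, percent of tested members of 17 gene lists called lower (leftward) or higher (rightward) over the 6 pairs at an edgeR FDR under 0.05, with dashed lines at the share of all genes tested (5.55% lower, 6.03% higher). Right, median log2 fold change of the members in each cell line, where the contractile, matrix and collagen lists lay above 0 and the cell cycle and ribosomal lists below 0 in all 3 lines, while the interferon list was at 1.00 in SCC1, 0.90 in SCC25 and -0.04 in SCC6.

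Genes of the cell cycle fell. Of 61 genes of G2 and mitosis, 48 were lower and 0 were higher (0 higher by DESeq2, and 0 at an unadjusted p under 0.05), and 47 were lower in all 6 pairs. Of all genes tested, 5.55% were called lower and 10.6% were lower in all 6 pairs. Every one of the 61 was lower in SCC1, and 60 were lower in SCC6 and in SCC25. The median log2 fold change was -1.13, -0.42 and -0.46 in SCC1, SCC6 and SCC25. A difference between the lines was called by edgeR for 0 of the 61 genes, against 1.29% of all genes tested, but 34 had an unadjusted p under 0.05 for that difference and DESeq2 called 5. Sums over a sample cannot tell fewer dividing cells from less transcript per dividing cell.

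HMGB2, a chromatin protein abundant in dividing cells, fell from 287 and 324 to 94.1 and 174 CPM in SCC1, from 291 and 344 to 160.0 and 200.2 CPM in SCC6 and from 172 and 178 to 126 and 114 CPM in SCC25. Treated and control samples did not overlap in any line, and the fall was 1.83-fold (edgeR FDR 0.0114). CDC25B, the phosphatase that opens mitosis, was 1.77-fold lower (edgeR FDR 0.00738), and NCAPH, a condensin subunit, 1.64-fold lower. HMMR, a spindle protein, fell from 9.01 and 21.1 to 3.54 and 10.4 CPM in SCC1, from 21.7 and 47.0 to 17.2 and 24.7 CPM in SCC6 and from 38.0 and 54.2 to 26.6 and 31.0 CPM in SCC25. In SCC1 and SCC6 the treated and control values of HMMR overlapped across replicates, and the fall was seen within each pair.

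CDKN3, a phosphatase acting on cyclin-dependent kinases, fell from 108 and 152 to 28.3 and 81.4 CPM in SCC1, from 106 and 214 to 83.6 and 118 CPM in SCC6 and from 175 and 216 to 124 and 137 CPM in SCC25 (1.81-fold, edgeR FDR 0.0244). Its call was lost without any of the replicate 2 pairs (edgeR FDR up to 0.0811). The replicates of 1 group differed in the level of these genes, and a fit without the pairs as blocks called 5 of the 61 genes. Leaving out the SCC6 replicate 2 pair left 7 calls, leaving out the SCC1 replicate 2 pair 10 to 11, the SCC25 replicate 2 pair 18 and the SCC1 replicate 1 pair 28 to 30. BUB1, a kinase of the spindle checkpoint, kept its call in each of these fits, while CENPE, a kinesin of the kinetochore, PBK, a mitotic kinase, and DEPDC1 lost theirs without the SCC6 replicate 2 pair (edgeR FDR 0.0557, 0.0507 and 0.0569).

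The CHR element (TTTGAA), at which the MuvB complex acts on genes of late cell cycle, was looked for on both strands of the promoters. Of the 61 genes 52 had an entry, and 35 of these (67.3%) held the letters, against 15.4% of all promoters. Among the other genes called lower the share was 94 of 708 (13.3%). Here too listed genes were counted whether called or not, so the share describes the list and not the response. The windows of HMMR and DEPDC1 are shown because the letters lie next to the start, and they run from base -60 to base -1, at chr5:163460572-163460631 on the plus strand and chr1:68497083-68497142 on the minus strand. Capitals mark the element, which HMMR holds 2 times in a row and DEPDC1 on the opposite strand.
HMMR: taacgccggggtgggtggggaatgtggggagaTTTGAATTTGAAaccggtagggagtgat
DEPDC1: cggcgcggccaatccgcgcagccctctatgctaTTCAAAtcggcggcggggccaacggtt

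S phase and DNA replication moved the same way with smaller sizes. Of 45 genes 19 were lower and 0 higher (0 higher by DESeq2, and 0 at an unadjusted p under 0.05), and 25 were lower in all 6 pairs. The shares of all genes tested were 5.55% called lower and 10.6% lower in all 6 pairs. The median was -0.79, -0.27 and -0.34 in SCC1, SCC6 and SCC25. POLE2 of the leading-strand polymerase, PRIM1, the primase, CDT1 of origin licensing and LIG1, the replicative ligase, fell by 0.61 to 0.70 on the log2 scale. POLE2 and PRIM1 lost their calls without the SCC6 replicate 2 pair (edgeR FDR up to 0.0513 and 0.0514), CDT1 without the PBS sample of SCC1 replicate 1 (0.0501), and LIG1 without any of the replicate 2 pairs (up to 0.0536). Without the SCC6 replicate 2 pair 2 of the 45 genes were called, without an SCC1 pair 3 to 6, without the SCC25 replicate 2 pair 3 to 4, and without pairs as blocks 1. Of 18 cyclins and inhibitors of cyclin-dependent kinases, CDKN2B, CDKN1A and CDKN2A were higher (16.7%) and CDKN2D and RBL1 lower (11.1%). Over all genes tested 6.03% were higher and 5.55% lower. CDKN2D (edgeR FDR 0.0468) lost its call whichever sample was left out (up to 0.136). The call of RBL1 was lost without the SCC6 replicate 2 pair (edgeR FDR up to 0.0856) and without others. CDKN1A, the p21 inhibitor, was 1.62-fold higher (edgeR FDR 0.0157, and up to 0.0602 without the SCC6 replicate 2 pair). CDKN2B, the p15 inhibitor, rose from 23.1 and 17.6 to 125 and 64.6 CPM in SCC1 and from 19.6 and 43.8 to 55.4 and 109 CPM in SCC25, whereas SCC6 had at most 0.0119 CPM. CDKN2A had no UMI in SCC6 and at most 0.684 CPM in SCC25, so that its 1.49-fold rise (edgeR FDR 0.0441) rests mainly on SCC1, and it was lost without any single pair except SCC6 replicate 1 (up to 0.136).

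Cytosolic ribosomal proteins fell in every line. Of 79 tested, 70 were lower and 0 higher (0 higher by DESeq2, and 0 at an unadjusted p under 0.05), 77 were lower in all 6 pairs, and all 79 had a log2 fold change below 0 in each line. The shares of all genes tested were 5.55% called lower and 10.6% lower in all 6 pairs. Abundant genes were lower more often, at 16.5% of genes above 100 CPM, and 27.4% of those were lower in all 6 pairs. That group includes ribosomal protein genes such as RPS2, so its shares are in part those of this list. The changes were small and even, between -0.53 and -0.15 on the log2 scale with medians of -0.34, -0.47 and -0.25 in SCC1, SCC6 and SCC25. These proteins made up 22.0% and 23.5% of all UMIs in SCC1 with PBS and 17.5% and 19.3% with cetuximab. In SCC6 they went from 34.5% and 28.1% to 28.8% and 23.2%, and in SCC25 from 26.7% and 22.4% to 20.8% and 20.4%. The share fell in each of the 6 pairs.

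RPS2, of the small subunit, went from 4760 and 5247 to 3402 and 3962 CPM in SCC1, from 17327 and 12277 to 10590 and 8636 CPM in SCC6 and from 14791 and 10557 to 9000 and 8134 CPM in SCC25 (1.45-fold lower, edgeR FDR 0.0076). RPS16 was 1.42-fold and RPS23 1.36-fold lower, both at an edgeR FDR of 0.00896. Such genes have many near-identical processed copies in the genome, and how reads shared with them were counted is not given, so the single genes are less certain than the group. Without the SCC6 replicate 2 pair 7 to 9 of the 79 genes were called, without an SCC1 pair 26 to 37, and without pairs as blocks 8. Ribosome biogenesis had 8 of 45 genes lower and 0 higher (0 higher by DESeq2, and 0 at an unadjusted p under 0.05). The lower genes are 17.8% of the list, against 5.55% of all genes tested and 16.5% of genes above 100 CPM. Among the 8 were FBL, fibrillarin of the nucleolus, 1.65-fold lower (edgeR FDR 0.00894), and NCL, nucleolin, 1.39-fold lower (edgeR FDR 0.0276). For NCL the edgeR FDR was up to 0.095 without the SCC6 replicate 2 pair or either SCC1 pair. The medians of the list were -0.26, -0.67 and -0.04 in SCC1, SCC6 and SCC25, so that SCC25 moved little. Without an SCC1 pair or the SCC6 replicate 2 pair 1 of these genes was called, and without the SCC25 replicate 2 pair 4.

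Messenger RNAs of ribosomal proteins begin with a run of pyrimidines, the TOP start, through which growth signals set their translation. A C at the first base followed by 4 bases that are C or T was found in 43 of the 63 ribosomal genes with a promoter entry (68.3%). It was found in 4.04% of all promoters and in 61 of 694 other lower genes (8.79%). The ribosomal genes were counted whether called or not, so their share describes the list and not the response. The windows of RPS16 and RPS23 run from base -15 to base 15, at chr19:39435935-39435964 and chr5:82278340-82278369, both on the minus strand, and capitals mark the first 5 transcribed bases.
RPS16: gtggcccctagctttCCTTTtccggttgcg
RPS23: tcctgcggtgcttctCTCTTtcgctcaggc

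**Figure D3:**
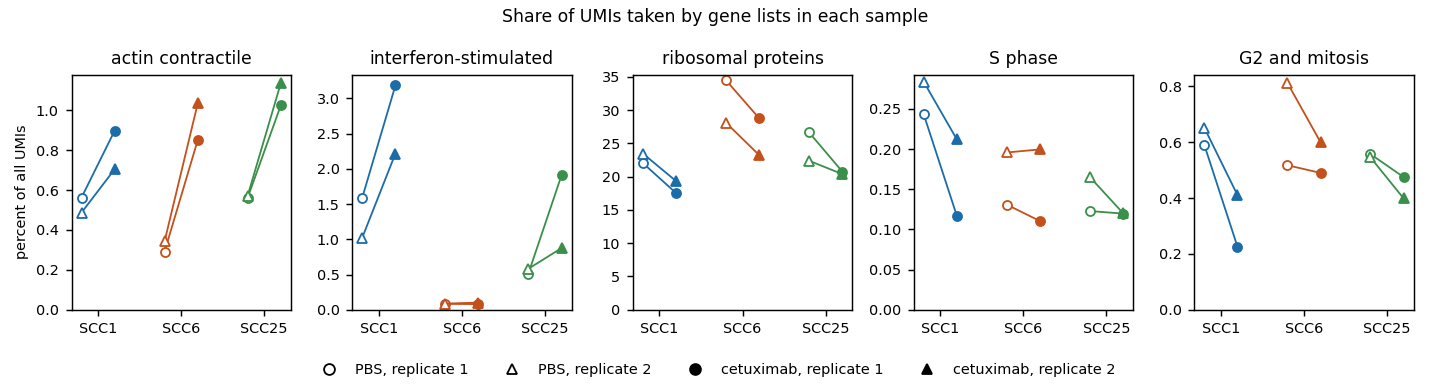
Percent of all UMIs in each sample that came from 5 gene lists, with lines joining PBS (open) and cetuximab (filled) samples of the same line and replicate number. Ribosomal proteins and G2 and mitosis genes fell and contractile genes rose in all 6 pairs; S phase genes were at 0.196% with PBS and 0.2% with cetuximab in the SCC6 replicate 2 pair, and interferon-stimulated genes stayed between 0.0797% and 0.102% in SCC6.

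Interferon-stimulated genes were shared in part. Of 48 such genes 16 were higher and 0 lower (0 lower by DESeq2, and 0 at an unadjusted p under 0.05), and 16 were higher in all 6 pairs. The shares of all genes tested were 6.03% called higher and 10.6% higher in all 6 pairs. All 48 were higher in SCC1 and 45 in SCC25, but 23 were higher and 25 lower in SCC6, with medians of 1.00, 0.90 and -0.04. For 5 of the 48 genes, ISG20, IFIT2, IFITM2, OASL and IRF1, edgeR called a difference between the lines, and these were named after their values were seen. In SCC6 they moved by -1.15, -0.32, -0.62, -1.35 and -1.13 on the log2 scale, and in SCC1 by 2.15, 2.21, 1.41, 2.42 and 0.15. Without SCC6 as a whole, 35 of the 48 genes were called higher, without SCC1 2, without an SCC1 pair 8 to 10, and without the SCC6 replicate 1 pair 25. The list took 0.0797% to 0.102% of UMIs in the 4 SCC6 samples and 0.512% to 3.18% in the other 8.

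IFI6, a mitochondrial protein induced by type I interferon, was one of the 16 that were higher in all 6 pairs. It went from 946 and 531 to 2004 and 1352 CPM in SCC1, from 3.54 and 6.48 to 17.3 and 37.3 CPM in SCC6 and from 103 and 101 to 969 and 249.8 CPM in SCC25 (3.87-fold, edgeR FDR 0.00896). STAT2, a transcription factor of the interferon response, was 1.88-fold higher with changes of 0.51 to 1.17 on the log2 scale among the pairs (edgeR FDR 0.00587). IFI44L was 2.80-fold higher, though under 2 CPM in SCC6, and EPSTI1 2.08-fold. In SCC25 the replicate 1 pair moved further than the replicate 2 pair for each of these genes, as it did for IL32, an inflammatory cytokine, which went from 42.3 and 25.5 to 939 and 183 CPM there. IL32 rose from 59.1 and 46.7 to 418 and 87.8 CPM in SCC1 and from 9.52 and 14.9 to 81.7 and 99.9 CPM in SCC6 (7.10-fold, edgeR FDR 0.00771).

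The core of the interferon-stimulated response element (ISRE, GAAANNGAAA on either strand, N for any base) was present in 24 of 38 interferon-stimulated promoters (63.2%), against 3.65% of all promoters and 31 of 769 other higher genes (4.03%). Interferon-stimulated genes were counted whether called or not, so their share describes the list and not the response. The windows below are shown because these 3 genes rose in all 6 pairs, and capitals mark the element. IFI6 runs from base -170 to base -81 (chr1:27672273-27672362, minus strand), IFI44L from base -90 to base -51 (chr1:78620358-78620397, plus strand) and EPSTI1 from base -70 to base -21 (chr13:42992262-42992311, minus strand).
IFI6: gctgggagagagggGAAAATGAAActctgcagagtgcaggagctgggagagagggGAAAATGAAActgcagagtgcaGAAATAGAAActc
IFI44L: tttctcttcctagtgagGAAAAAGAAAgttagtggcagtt
EPSTI1: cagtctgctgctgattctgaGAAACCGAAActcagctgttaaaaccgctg

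**Figure D4:**
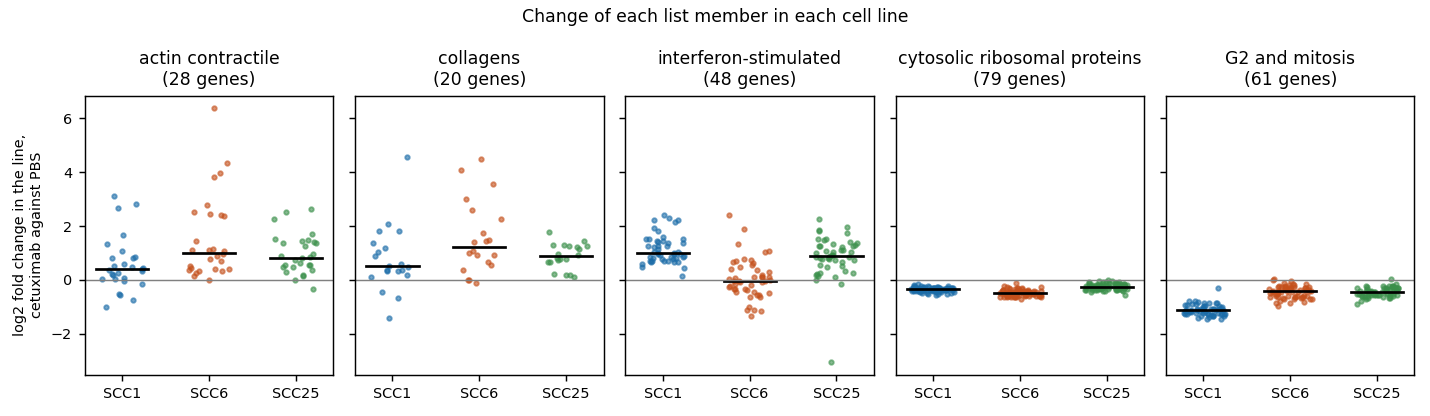
Log2 fold change in each cell line of every tested member of 5 lists (points) with the median (bar). Ribosomal proteins lay in a narrow band below 0 in all lines, G2 and mitosis genes were lower in SCC1 (median -1.13) than in SCC6 (-0.42) and SCC25 (-0.46), and interferon-stimulated genes spread around 0 in SCC6 alone.

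The target and its own pathway moved less uniformly. EGFR stood at 61.9 and 74.1 CPM with PBS and 65.6 and 80.4 CPM with cetuximab in SCC1, at 103 and 85.5 against 84.6 and 88.2 CPM in SCC6, and at 88.5 and 109.6 against 99.6 and 137 CPM in SCC25. The change of 0.07 ± 0.09 on the log2 scale did not pass the test (edgeR FDR 0.611), and its sign turned without SCC25 (-0.01). Cetuximab acts on the protein, so the transcript does not check the treatment. ERBB2, the partner receptor without a ligand of its own, was 1.32-fold higher in all 6 pairs (edgeR FDR 0.0152), and LRIG3, a membrane protein of the family that restrains receptor tyrosine kinases, 1.66-fold (edgeR FDR 0.0322). Both calls were lost without the SCC6 replicate 2 pair (edgeR FDR up to 0.0629 and 0.104), and that of LRIG3 also without the SCC1 replicate 1 or SCC25 replicate 1 pair or the PBS sample of SCC1 replicate 2 (0.0512 to 0.0653). ERBB3 (0.00 ± 0.11) and ERBB4 (0.98 ± 0.64, at most 0.306 CPM) did not pass.

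Of the 7 EGFR ligands only EREG, epiregulin, passed the test (14.3% of the list, against 5.55% of all genes called lower). It went from 7.99 and 10.2 to 1.72 and 3.97 CPM in SCC1, from 221 and 105 to 8.44 and 22.9 CPM in SCC6 and from 3.58 and 2.36 to 1.88 and 1.58 CPM in SCC25 (3.91-fold lower, edgeR FDR 0.0365). The call was lost without either SCC1 pair or the SCC6 replicate 2 pair (edgeR FDR up to 0.109). AREG, amphiregulin, was lower in all 6 pairs but by unequal amounts, from 617 and 128 to 7.57 and 24.6 CPM in SCC6 against 61.5 and 32.3 to 44.1 and 29.6 CPM in SCC25, and did not pass (-1.62 ± 0.71, edgeR FDR 0.167). HBEGF (-0.54 ± 0.63), TGFA (-0.47 ± 0.35), EPGN (0.31 ± 0.47) and BTC (0.24 ± 0.40) did not pass and went different ways in the lines. EGF was at most 0.735 CPM in any sample.

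Among 20 genes of MAPK feedback and output, 1 was lower and 0 higher at an edgeR FDR under 0.05, while DESeq2 called 3 lower and 1 higher and an unadjusted p under 0.05 was reached by 5 lower and 2 higher. The 1 lower gene is 5% of the list, against 5.55% of all genes tested, and 5 of the 20 were lower in all 6 pairs, against 10.6% of all genes. Of these 5, ETV4, an ETS factor induced by ERK, did not pass (-0.88 ± 0.25, edgeR FDR 0.0541), nor did DUSP5, a nuclear phosphatase of ERK (-1.09 ± 0.41, edgeR FDR 0.113). The lower gene, ETV1, a transcription factor of the ETS family, fell by 0.57 ± 0.14 (edgeR FDR 0.0351). The list's median was -0.49 in SCC6, 0.04 in SCC1 and -0.01 in SCC25. Of 13 AP-1 and immediate early genes ATF3 alone was higher (0.66 ± 0.17, edgeR FDR 0.0383). That is 7.69% of the list, against 6.03% of all genes tested. ATF3 was not higher in every pair, and 0 of the 13 had 1 direction in all 6 pairs. Neither ETV1 nor ATF3 kept its call without the pairs as blocks (edgeR FDR 0.313 and 0.199) or without an SCC1 pair, the SCC6 replicate 2 pair or the SCC25 replicate 2 pair (up to 0.116 and 0.120). Of 18 genes of the insulin receptor, PI3K and FOXO response 0 were lower (0 lower by DESeq2, and 0 at an unadjusted p under 0.05). The higher genes were 4, or 22.2%, against 6.03% of all genes tested. They were PIK3IP1, an inhibitor of PI3K (2.60-fold), TXNIP, which restrains glucose uptake (2.60-fold), FOXO1 (1.61-fold) and IGF1R, the receptor of insulin-like growth factors (1.39-fold). All 4 were lost without the SCC6 replicate 2 pair (edgeR FDR up to 0.0514, 0.0641, 0.0611 and 0.0932), TXNIP and IGF1R also without either SCC1 pair, and IGF1R without the SCC25 replicate 2 pair (up to 0.0662).

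**Figure D5:**
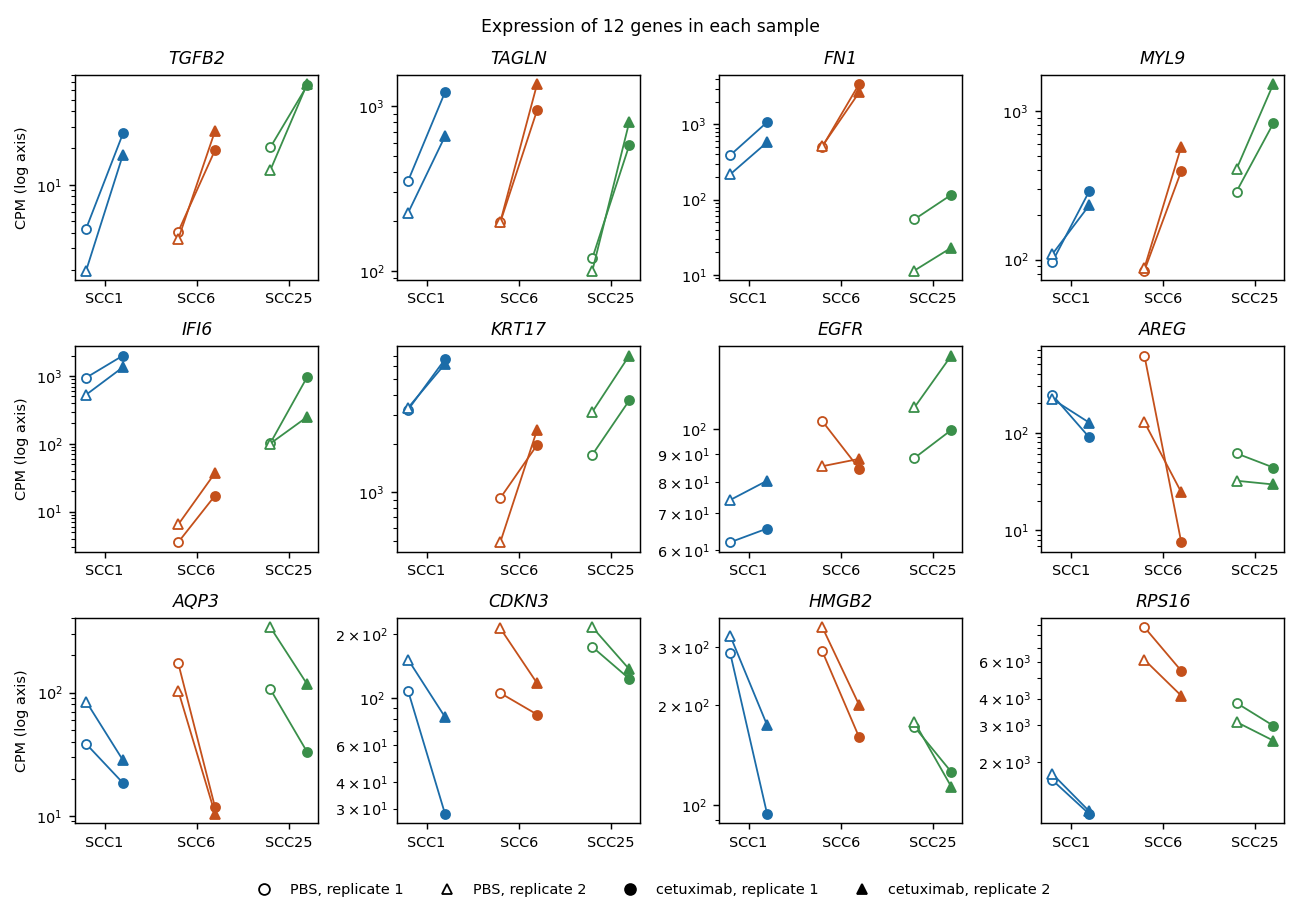
Level of 12 genes in every sample in CPM on log axes, with lines joining PBS (open) and cetuximab (filled) samples of equal line and replicate number. The first 6 genes rose in each pair, AREG and the last 4 fell in each pair, AREG by between -6.34 and -0.13 on the log2 scale, while EGFR moved both ways, between -0.29 and 0.32.

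Genes of epithelial identity moved in part in a shared way and in part differently among the lines. None of 19 genes of epithelial junctions was called (0 by edgeR, 2 higher and 0 lower by DESeq2, 3 higher and 2 lower at an unadjusted p under 0.05). Of 25 genes of squamous differentiation 2 were lower (8%, against 5.55% of all genes tested) and 0 higher. By DESeq2 6 were lower and 1 higher, and at an unadjusted p under 0.05 these were 6 and 2. LY6D, a surface marker of stratified epithelium, fell from 19.5 and 24.2 to 7.98 and 14.7 CPM in SCC1, from 9.62 and 5.64 to 3.49 and 2.02 CPM in SCC6 and from 802 and 1920 to 186 and 537 CPM in SCC25 (2.80-fold, edgeR FDR 0.005). CSTA, cystatin A of the cornified envelope, was 1.77-fold lower (edgeR FDR 0.0127), and up to 0.0519 without the SCC6 replicate 2 pair. Of 9 basal and stress keratins 2 were higher (22.2%, against 6.03% of all genes) and 0 lower, with 0 lower by DESeq2 or at an unadjusted p under 0.05. KRT17, a keratin of activated and basal keratinocytes, rose from 3248 and 3336 to 6649 and 6216 CPM in SCC1, from 922 and 492 to 1963 and 2438 CPM in SCC6 and from 1710 and 3145 to 3697 and 6996 CPM in SCC25 (2.39-fold, edgeR FDR 0.00782), though DESeq2 gave an FDR of 0.077. KRT75, a keratin of the hair follicle, was 4.29-fold higher (edgeR FDR 0.0101), on SCC25 mainly, since it stayed under 0.3 CPM in SCC1 and SCC6, and the call was lost without the SCC25 replicate 2 cetuximab sample (0.0643). For 5 of the 9, KRT5, KRT14, KRT15, KRT6A and KRT16, edgeR called a difference between the lines, and the sign of each was not the same in the 3 lines. KRT5, KRT14 and KRT6A were named after their values were seen, and KRT5 and KRT14 were at most 4.47 CPM in SCC6. Such keratins are close paralogs, and how reads shared between them were counted is not given. Of 11 simple and suprabasal keratins KRT80 was higher (1.92-fold, edgeR FDR 0.0183) and KRT19 (1.48-fold, edgeR FDR 0.0222) and KRT10 of suprabasal cells (1.28-fold, edgeR FDR 0.0441) were lower. These are 9.09% higher and 18.2% lower, against 6.03% and 5.55% of all genes tested. All 3 calls were lost without the SCC6 replicate 2 pair (up to 0.0601, 0.0793 and 0.101), KRT80 also without either SCC1 pair, KRT19 without the SCC25 replicate 2 pair, and KRT10 without any single pair except SCC6 replicate 1 (up to 0.131). Neither lower keratin was called without the pairs as blocks (edgeR FDR 0.291 and 0.093). A difference between lines was called for 2 of the 11, KRT7 and KRT13, named after their values were seen. AQP3, the water and glycerol channel of keratinocytes, fell from 38.3 and 84.6 to 18.5 and 28.2 CPM in SCC1, from 173 and 103 to 11.7 and 10.4 CPM in SCC6 and from 106 and 338 to 32.9 and 117 CPM in SCC25 (4.43-fold, edgeR FDR 0.015), and up to 0.0519 without the SCC6 replicate 2 pair.

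Calls made in each line apart were few in common. With 2 replicates and 3 residual degrees of freedom, edgeR called 440 genes higher (2.46%) and 357 lower (1.99%) in SCC1, 1779 higher (9.94%) and 1810 lower (10.1%) in SCC6, and 138 higher (0.771%) and 37 lower (0.207%) in SCC25. In all 3 lines 48 genes were called higher (0.268%) and 3 lower (0.0168%), and the fit without pairs as blocks called 0 of either. The 3 lower genes were AQP3, LY6D and THEG, the last named after its value was seen and found at 0.262 to 0.967 CPM with PBS and 0.0153 to 0.0773 CPM with cetuximab. Among the 48 were TGFB2, TAGLN, MYL9, FN1, CDH2 (N-cadherin), PTGS2 (cyclooxygenase 2) and GSTM3, a glutathione transferase. These counts turned on single pairs. Without the SCC25 replicate 1 pair 2 to 3 genes were higher in all 3 lines, without the SCC1 replicate 1 pair 5, without the SCC1 replicate 2 pair 18 to 23, without either SCC6 pair 71 to 81, and without the SCC25 replicate 2 pair 31 to 33. A difference between the lines was called for 39 of the 2073 genes of the shared response (1.88%), against 1.29% of all genes tested, and a p over the threshold does not show that the lines responded alike. Over all genes that difference was called for 230 (1.29%), for 1291 to 1308 without the SCC6 replicate 2 pair, 43 without the SCC6 replicate 1 pair, 48 to 63 without an SCC1 pair and 61 to 82 without the SCC25 replicate 1 pair.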

How the data were processed

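Cells of 12 samples were profiled with the 10x Chromium Single Cell 3′ kit (version 2 chemistry). Per the labels, the authors used Cell Ranger on GRCh38, and per the methods cells were pre-processed in Monocle 3. The authors deposited raw UMI counts per gene and cell for each line, and the Cell Ranger version is not given in the sources used here. All 23914 deposited cells were used, no doublet caller was run, and libraries shared 1 to 13 cell barcodes.

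UMI counts were summed per sample. Genes were filtered with filterByExpr, scaled with TMM and tested with edgeR 4.0.16 (quasi-likelihood F-test, Benjamini-Hochberg FDR threshold 0.05) in R 4.3.3, with 1 term per pair of line and replicate number and 1 treatment term (5 residual degrees of freedom). Effects per line and their difference came from a fit with 1 treatment term per line (3 residual degrees of freedom). SEs are the log2 fold change divided by the root of F. Pair differences are of log2 CPM with a prior count of 2. Whether replicate numbers pair samples was checked from the correlation of deviations from group means, which was 0.377, 0.349 and 0.598 in SCC1, SCC6 and SCC25, so the block was kept. Depth and cell measures were tested by exact permutation within pairs.

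Genes named are the 15 higher and 15 lower with the largest shared size (the smallest change among the lines, among called genes of 1 direction in 6 pairs with a mean of at least 10 CPM in every line), up to 4 members of each of 47 lists by p, the EGFR ligands and ERBB receptors, and the 5 called genes with the smallest p for a difference between lines. The smallest shared sizes named were 1.15 and -0.56, and the next genes had 1.13 and -0.56. Of these, 2 higher genes are not reported here. Further genes were named after their values were seen. The lists, their members and the comparisons were chosen with earlier results of these data known. Alternatives were DESeq2 1.42.0, other size factors, no filter, thinned totals, filters on cells, other blocks, and leaving out samples or lines. Scripts were tested on simulated data.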

Additional observations from a re-analysis of the deposited data

Results flagged for a closer look

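For 25 of the genes named, edgeR called a difference in the size or direction of the change between SCC1, SCC6 and SCC25. In 8 of them the sign was positive in all 3 lines and the change was largest in SCC6. ACTG2 (interaction FDR 0.0126) moved by 2.81, 3.81 and 1.43 in SCC1, SCC6 and SCC25 on the log2 scale, DKK3 (FDR 0.0126) by 0.40, 2.37 and 0.77, and TPM1 (FDR 0.0126) by 0.83, 2.78 and 1.36. FN1 (FDR 0.0191) moved by 1.44, 2.57 and 1.04, COL4A1 (FDR 0.0191) by 1.04, 2.99 and 1.28, and COL1A1 (FDR 0.0347) by 0.18, 3.56 and 1.30. ACKR3 (FDR 0.0191) moved by 2.62, 3.06 and 0.90 and MFAP5 (FDR 0.0191) by 2.87, 3.56 and 0.46.

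AQP3 (FDR 0.0191) moved by -1.32, -3.60 and -1.61 in SCC1, SCC6 and SCC25 and was lower in all 6 pairs, and ID1 (FDR 0.0383) moved by -0.03, -1.07 and -0.62 and was lower in 5 of 6 pairs. The interferon-stimulated genes IFIT2 (FDR 0.0191), IFITM2 (FDR 0.0191), ISG20 (FDR 0.0396), OASL (FDR 0.00875) and IRF1 (FDR 0.0491) had a positive change in SCC1 and SCC25 and a negative one in SCC6. Not all of these changes passed within a line. In SCC25 IFIT2 alone passed (edgeR FDR 0.0403), and IFITM2, OASL and IRF1 moved by 0.32, 0.13 and 0.18. IRF1 did not pass in SCC1 (0.15, edgeR FDR 0.671), nor did IFIT2 and ISG20 in SCC6 (edgeR FDR 0.270 and 0.0502). OASL stood at 0.258 to 2.23 CPM in SCC6. EGF (FDR 0.0386) moved by 4.65 and 2.45 in SCC1 and SCC6 and by -0.54 in SCC25, at no more than 0.735 CPM.

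VIM (FDR 0.0126) moved by -2.21, 3.88 and 0.66 and ACTA2 (FDR 0.0356) by -0.51, 2.42 and 2.27 in SCC1, SCC6 and SCC25. Keratins differed among the lines in sign as well. KRT5 (FDR 0.0251) moved by -0.12, 1.60 and -0.05, KRT14 (FDR 0.0191) by 0.80, 1.60 and -0.39, and KRT16 (FDR 0.0312) by 1.13, 1.31 and -0.29. The rises of KRT5 and KRT14 in SCC6 were at low levels, 1.16 to 4.47 CPM and 0.424 to 2.52 CPM. In SCC1 and SCC25 KRT5 stood at 324 to 2281 CPM and KRT14 at 1155 to 4675 CPM. KRT15 (FDR 0.0430) moved by 0.40, -1.01 and -2.16, KRT6A (FDR 0.0191) by 0.26, -2.59 and -0.12, KRT13 (FDR 0.0341) by 0.89, -0.24 and -2.24, and KRT7 (FDR 0.0191) by 0.60, -0.80 and 0.85. The number of genes for which lines differed ranged from 43 to 1308 when 1 sample was left out and was 0 without the pairs as blocks.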

How the results depend on the processing

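DESeq2 size factors, thinning of all totals to the smallest, leaving out the 5% of cells with most UMIs and leaving out cells above 20% mitochondrial UMIs moved no count of genes by more than 1.5 times. Without the replicate block, 453 genes were higher and 203 lower over the lines, 396 and 185 with 1 direction in every pair, 3 and 0 in SCC1, 449 and 233 in SCC6, 0 and 0 in SCC25 and 0 and 0 in all 3 lines, and 0 genes differed between lines. The lists then held 5 (G2 and mitosis), 1 (S phase), 8 (ribosomal proteins) and 2 (ribosome biogenesis) lower genes and 7 (matrix glycoproteins), 6 (collagens), 4 (integrins and laminins), 2 (YAP and TEAD) and 9 (interferon-stimulated) higher genes. With 1 replicate block term shared by the lines, 102 higher and 31 lower genes were called in SCC1, 1140 lower in SCC6, 27 higher and 2 lower in SCC25, 10 higher and 0 lower in all 3 lines and 18 between lines. DESeq2 called 1697 higher and 1687 lower, 1369 lower in every pair, 813 and 676 in SCC1, 419 and 188 in SCC25, 135 and 25 in all 3 lines and 1192 between lines, with 30 S phase, 18 ribosome biogenesis and 27 interferon-stimulated genes. With no filter on low counts 754 genes were higher in SCC1, 347 higher and 128 lower in SCC25, 104 and 12 in all 3 lines, and 872 differed between lines.

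Without the line SCC1, 136 genes were higher and 52 lower, 132 and 51 in every pair, 75 and 22 in SCC25, and 51 differed between lines. The lists held 1 (G2 and mitosis), 0 (S phase), 0 (ribosomal proteins), 0 (ribosome biogenesis), 8 (contractile), 5 (matrix), 2 (collagens), 3 (integrins), 3 (TGF-beta), 2 (YAP and TEAD) and 2 (interferon) genes. Without SCC6, 522 genes were lower, 502 in every pair, 690 higher in SCC1, 214 and 76 in SCC25 and 14 between lines, with 39 ribosomal, 2 biogenesis and 35 interferon genes. Without SCC25, 464 were higher and 242 lower, 436 and 240 in every pair, and 177 lower in SCC1, with 21 (G2 and mitosis), 1 (S phase), 33 (ribosomal), 5 (biogenesis), 9 (contractile), 6 (matrix), 8 (collagens), 3 (integrins) and 3 (YAP and TEAD) genes. These fits had fewer samples. Genes called in all 3 lines were not computed without a line.

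Leaving out either sample of a pair removes that pair from the treatment estimate. Over the 12 such fits the calls ranged from 206 to 1182 higher and 91 to 969 lower, from 201 to 1066 and 87 to 920 in every pair, from 19 to 697 and 2 to 524 in SCC1, from 448 to 2195 and 193 to 2113 in SCC6, from 2 to 259 and 0 to 95 in SCC25, from 2 to 81 and 0 to 9 in all 3 lines, and from 43 to 1308 between lines. Lists ranged from 7 to 52 (G2 and mitosis), 2 to 17 (S phase), 7 to 66 (ribosomal), 1 to 10 (biogenesis), 6 to 17 (contractile), 5 to 10 (TGF-beta), 2 to 11 (YAP and TEAD), 3 to 12 (matrix), 2 to 14 (collagens), 3 to 9 (integrins) and 8 to 25 (interferon). The lowest counts of the shared response came without the SCC6 replicate 2 pair.

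Of 102 called genes named in the text, 31 lost the call without the replicate block, 6 with the shared term, 1 with DESeq2, 48 without the SCC6 replicate 2 pair, 65 without SCC1, 32 without SCC25 and 14 without SCC6. No called gene changed sign in any setting. Among genes that did not pass, the sign turned for ERBB3 with DESeq2 size factors (-0.0017), DESeq2 (-0.0012), without the cells with most UMIs (-0.0027), without cells of high mitochondrial share (-0.0064), without SCC1 (-0.16) and without 1 SCC1 sample (-0.082 to -0.026). It turned for BTC (-0.33), EPGN (-0.41), IFITM2 (-0.15), ISG20 (-0.16) and OASL (-0.46) without SCC1, for BTC and EPGN without 1 SCC1 replicate 1 sample, for HBEGF (0.23), TGFA (0.037), IRF1 (0.17), PDGFRB (-0.24), KRT5 (-0.084), KRT6A (0.072) and VIM (-0.50) without SCC6, for HBEGF without 1 SCC6 replicate 1 sample and for EGFR (-0.011), KRT7 (-0.093) and KRT13 (0.33) without SCC25. Over all fits without 1 sample these genes ranged from -0.010 to 0.61 (BTC), -0.087 to 0.69 (EPGN), -0.082 to 0.049 (ERBB3) and -0.86 to 0.014 (HBEGF). The causes were not tested. Thinning all totals to the smallest lowered the calls from 1079 to 962 higher and from 994 to 883 lower genes. Data of this design were also simulated with a shared change and no difference between lines. There edgeR recovered 41.8% of changes of 0.5 on the log2 scale, 83.6% of changes of 1 and 93.9% of changes of 2. It made 4 false calls among 17897 genes. In the real data a difference between lines was called for 230 genes. The simulated rates therefore do not measure recovery or false calls in the real data.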

Other observations

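Some receptors and secreted factors beside the EGFR family were higher. Of 19 receptors and ligands known to bypass EGFR, 3 were higher (15.8%, against 6.03% of all genes tested) and 0 lower (1 lower by DESeq2 and 2 at an unadjusted p under 0.05). GAS6, the ligand of the TAM receptors, was 1.83-fold higher and moved by 0.54 to 1.34 on the log2 scale among the 6 pairs (edgeR FDR 0.00894). MET, the receptor of hepatocyte growth factor, was 1.38-fold higher with like changes of 0.50, 0.45 and 0.43 in SCC1, SCC6 and SCC25, and its call was lost without the SCC6 replicate 2 or SCC1 replicate 2 pair (edgeR FDR up to 0.0621). IGF binding proteins had 2 of 7 genes higher (28.6%), WNT genes 4 of 24 (16.7%), NOTCH genes 2 of 15 (13.3%) and chemokines and cytokines 6 of 27 (22.2%), with 0 lower in each, against 6.03% higher and 5.55% lower over all genes. In lists this small the counts above that share are a few genes. By DESeq2 the lower genes were 0, 0, 2 and 0, and at an unadjusted p under 0.05 they were 0, 1, 2 and 1. The medians of the chemokines and cytokines were 0.30, -1.02 and 1.26 in SCC1, SCC6 and SCC25. In SCC6 17 of the 27 were lower and 8 higher. Across the lines 3 of the 27 were higher in all 6 pairs, against 10.6% of all genes tested.

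Mesenchymal factors went different ways in the lines. Of 12 genes 2 were higher (16.7%, against 6.03% of all genes tested) and 0 lower, with 1 lower by DESeq2 and 1 at an unadjusted p under 0.05. In the 3 lines 5 of the 12 had 1 sign. VIM, vimentin, an intermediate filament of mesenchymal cells, named after its values were seen, went from 2.03 and 6.59 to 0.628 and 1.11 CPM in SCC1, from 33.6 and 92.8 to 841 and 805 CPM in SCC6 and from 378 and 266 to 524 and 479 CPM in SCC25. It did not pass over the pairs (0.88 ± 0.95, edgeR FDR 0.574), and its difference between lines did (edgeR FDR 0.0126). S100A4, a calcium-binding protein of motile cells, was lower in 5 of 6 pairs and did not pass (-0.53 ± 0.18, edgeR FDR 0.0900, DESeq2 FDR 0.0357). The 2 higher genes were MMP2, a gelatinase (2.54-fold, edgeR FDR 0.0122, and up to 0.0514 without the SCC6 replicate 2 pair), and CDH2, N-cadherin, which went from 4.32 and 2.82 to 15.5 and 7.55 CPM in SCC1, from 10.1 and 14.3 to 52.2 and 53.9 CPM in SCC6 and from 68.3 and 30.2 to 136 and 56.4 CPM in SCC25 (2.97-fold, edgeR FDR 0.0068).

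In prostaglandin synthesis 1 of 12 genes was higher and 1 lower (8.33% each, against 6.03% and 5.55% of all genes tested). PTGS2, cyclooxygenase 2, was 2.14-fold higher in pairs that ranged from 0.59 to 1.48 on the log2 scale (edgeR FDR 0.0051). HPGD, which degrades prostaglandins, was 2.75-fold lower (edgeR FDR 0.024), though not in all pairs, and its call was lost without the SCC1 replicate 1, SCC6 replicate 2 or SCC25 replicate 2 pair (up to 0.0769). Of 20 p53 targets 5 were higher (25%) and 1 lower (5%). Of 18 squamous lineage factors SOX4 was higher (5.56%) and SOX15 and PITX1 were lower (11.1%). The shares of all genes tested were again 6.03% higher and 5.55% lower. Of 53 nuclear genes of oxidative phosphorylation 7 were lower (13.2%) and 18 were lower in all 6 pairs. Of all genes 5.55% were lower and 10.6% were lower in all 6 pairs, and of genes above 100 CPM 16.5% and 27.4%. The group above 100 CPM includes ribosomal protein genes. Heat shock genes (20), NRF2 targets (24), metallothioneins (7) and the HLA class II pathway (10) had 0 calls in edgeR. At an unadjusted p under 0.05 these lists had 1, 0, 0 and 0 higher and 4, 3, 1 and 0 lower genes, and DESeq2 called 1, 0, 0 and 0 higher and 3, 1, 0 and 0 lower.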
